A study of Mus musculus with 31 samples.

Results

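Clock output factors are genes that the circadian clock of the liver drives and that pass its rhythm on to metabolism or back to the clock. The 9 genes were Dbp, Tef, Hlf, Nfil3, Ciart, Bhlhe40, Bhlhe41, Usp2 and Wee1. They were chosen by name for these roles, with earlier results of these data known, and every array probe carrying one of these gene names was taken. Of 18 such probes, 16 probes of 8 genes passed the filter on dim spots, among the 23968 gene names measured, and both Bhlhe41 probes did not.

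In each cell the clock factors CLOCK and BMAL1 bind E-boxes and switch on, among others, Dbp, Tef, Ciart and Usp2. DBP, TEF and HLF are PAR bZIP proteins, activators that bind D-boxes in the promoters of metabolic genes of the liver, and NFIL3 (E4BP4) binds the same boxes as a repressor, with an RNA rhythm about opposite to that of Dbp. CIART (CHRONO), BHLHE40 (DEC1) and BHLHE41 (DEC2) repress transcription driven by CLOCK and BMAL1, USP2 is a rhythmic ubiquitin-specific protease, and WEE1 is a kinase that holds back entry into mitosis.

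Livers came from 31 male C57BL6/J mice, 1 one-color Agilent array per mouse, with all mice fasted for 24 hours and then given food and water with 20% glucose for 18 hours. ChREBPβ-deficient mice (ChREBPbeta_KO, n = 8) lacked exon 1b of Mlxipl in all tissues after CRISPR/Cas9 editing of embryos, total ChREBP-KO mice (ChREBPtotal_KO, n = 7) lacked both isoforms of the glucose-responsive factor ChREBP in all tissues, and each line had 8 WT littermates (ChREBPbeta_WT and ChREBPtotal_WT). Replicate 3 of the total ChREBP-KO mice was not analysed here. The age of these mice, the clock time at which livers were taken and which of the edited founder lines was used were not given in the sources used here, and mice were kept on a light/dark cycle (8 am to 8 pm), with blood taken around 8 am.

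All values below are log2 signals after quantile normalization over the 31 arrays, differences are in log2 units, and a gene was called where limma gave at least 1 of its probes an adjusted p under 0.05. The brightest probe of a gene is given unless another is named. Hepatocyte genes such as Alb and Ttr were bright on every array (Ttr 17.52 to 18.06), and the local background of an array had a median of 15 to 21, except 33 in replicate 4 of the total ChREBP-KO mice. WT mice 2, 7 and 8 of the total line held RNA of the exocrine pancreas, with Cela3b at 10.41, 8.49 and 8.81 against at most 5.58 in the other 28 livers. Mlxipl probe A_55_P2119957 fell by 1.16 (SE 0.07) in total ChREBP-KO mice and by 0.45 (SE 0.07) in ChREBPβ-deficient mice, and in each line every knockout was below every WT littermate. Probe A_55_P2728555 of the same gene differed by -0.59 (limma adjusted p = 0.00313) and -0.46 (adjusted p = 0.909), and probe A_55_P2045158 by -0.05 and -0.06. Where the probes lie relative to the deleted parts was not given.

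The 250 bases before the RefSeq start site (build GRCm38.p6) are shown for Dbp, Tef, Ciart and Usp2, since these 4 genes were higher in total ChREBP-KO mice. The sequences run 5′ to 3′ on the strand of the gene, and capitals mark the E-box CACGTG, which reads the same on both strands.
Dbp, chr7:45704997-45705246, plus strand: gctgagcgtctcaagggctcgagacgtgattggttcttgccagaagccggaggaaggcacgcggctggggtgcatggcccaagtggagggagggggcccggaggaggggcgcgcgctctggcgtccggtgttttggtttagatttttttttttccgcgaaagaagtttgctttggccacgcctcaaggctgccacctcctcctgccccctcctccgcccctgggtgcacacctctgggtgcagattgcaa
Tef, upstream one of 2 start sites, chr15:81802423-81802672, plus strand: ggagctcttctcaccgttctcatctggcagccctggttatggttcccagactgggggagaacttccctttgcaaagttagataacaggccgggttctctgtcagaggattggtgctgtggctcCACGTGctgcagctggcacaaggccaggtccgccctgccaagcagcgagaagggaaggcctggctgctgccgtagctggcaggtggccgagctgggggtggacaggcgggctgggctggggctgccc
Ciart, chr3:95882229-95882478, minus strand: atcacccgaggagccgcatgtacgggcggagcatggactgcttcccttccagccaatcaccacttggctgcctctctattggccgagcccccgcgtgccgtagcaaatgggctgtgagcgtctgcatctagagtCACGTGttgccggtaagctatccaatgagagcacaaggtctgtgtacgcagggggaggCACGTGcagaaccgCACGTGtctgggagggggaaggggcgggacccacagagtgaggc
Usp2, chr9:44084670-44084919, plus strand: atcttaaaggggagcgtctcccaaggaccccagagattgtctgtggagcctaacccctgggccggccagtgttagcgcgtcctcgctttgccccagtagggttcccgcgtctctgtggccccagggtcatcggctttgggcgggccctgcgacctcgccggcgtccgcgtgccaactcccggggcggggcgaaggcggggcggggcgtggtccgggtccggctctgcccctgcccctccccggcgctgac
Ciart held 3 E-boxes, which began 116, 58 and 44 bases before the start, and each of the 2 start sites of Tef had 1, at 127 and 138 bases. Bhlhe41 also had 1, at 153 bases. By comparison, 6.02% of 32851 RefSeq windows of this length held an E-box and 0.0609% held 3 or more. The D-boxes TTATGTAA and TTACGTAA, searched on both strands and found in 0.819% and 0.113% of windows, were in none of the windows of the 7 genes listed, and Dbp, Hlf, Nfil3 and Usp2 held none of the motifs searched. Windows for Bhlhe40 and Wee1 were not used here.

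The first comparison asked what the loss of both ChREBP isoforms did to these genes. In total ChREBP-KO mice Dbp, Tef, Ciart and Usp2 were higher than in WT littermates, Bhlhe40 was lower, and Hlf, Nfil3 and Wee1 were not called. That is 4 of 8 genes higher and 1 of 8 lower, where 33.9% of all genes were called, 17.3% higher and 17.1% lower. By probes, 9 of 16 were called higher and 1 lower, beside 14.5% and 14.6% of all probes. The median difference of the 8 genes was 0.87, against 0.01 over all genes. Every knockout lay above every WT littermate for 7 of the 16 probes and below for 1, beside 3.26% and 4.14% of all probes (7.4% together). Signal in bulk liver cannot tell fewer cells of a type from less RNA per cell.

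Dbp, whose RNA has one of the widest daily swings in liver, had the largest difference of the 8. Its brightest probe lies at chr7:52965265-52965324 (mm9). The 8 WT littermates of the total line had signals from 9.05 to 10.95 (median 10.38), and the 7 total ChREBP-KO mice had signals from 12.23 to 14.04 (median 13.54). The groups did not overlap, and the mouse closest to the WT range was replicate 8. The mean was 3.19 higher (SE 0.99, 9.14-fold, limma adjusted p = 0.0143), and the second Dbp probe gave 3.05 (adjusted p = 0.0158). The error takes in the wide spread of the ChREBPβ line, and with the 15 mice of the total line fitted alone the adjusted p was 1.73e-06.

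Tef, which encodes another PAR bZIP activator (probe at chr15:81657221-81657280), had signals of 11.88 to 12.79 (median 12.51) in WT littermates and 13.22 to 13.99 (median 13.73) in total ChREBP-KO mice. Again no knockout reached down to the WT range. The difference was 1.21 (SE 0.41, 2.31-fold, limma adjusted p = 0.0262). All 4 Tef probes were called, with differences of 0.57 to 1.29, and the one with the weakest call (A_55_P2912692, adjusted p = 0.0499) overlapped between groups.

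Hlf, the remaining PAR bZIP gene, behaved differently from Dbp and Tef. Its signals were 8.53 to 9.74 (median 9.50) in WT littermates and 8.72 to 9.98 (median 9.05) in total ChREBP-KO mice, so the ranges lay over each other. The difference was -0.19 (95% confidence interval -0.60 to 0.22, limma adjusted p = 0.520). Its 1 probe was found by the software on 22 of 31 arrays.

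Nfil3, the repressor of the D-box, ranged from 10.95 to 11.72 (median 11.40) in WT littermates and from 10.44 to 12.01 (median 10.69) in total ChREBP-KO mice. Of the knockouts, 4 were below every WT littermate and replicate 8, the one with the least Dbp, was above all of them. The difference was -0.39 (95% confidence interval -1.18 to 0.39, limma adjusted p = 0.490), and the second probe gave -0.40.

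Among the repressors of the clock, Bhlhe40 fell in total ChREBP-KO mice (probe at chr6:108616309-108616368). WT littermates had signals of 11.60 to 12.98 (median 12.47), and total ChREBP-KO mice had signals of 9.47 to 10.80 (median 10.41). The lowest WT mouse was thus brighter than the brightest knockout. The difference was -2.08 (SE 0.23, 4.23-fold lower, limma adjusted p = 2.36e-08), from the 1 probe of this gene.

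Ciart rose in the same mice, with less certainty. Signals were 4.89 to 5.98 (median 5.24) in WT littermates and 5.87 to 7.33 (median 6.62) in total ChREBP-KO mice, with 1 knockout, replicate 5, inside the WT range. The difference was 1.16 (SE 0.42, 2.23-fold, limma adjusted p = 0.0348), whereas the second Ciart probe, which lies nearer the 5′ end of the transcript, gave 0.22 (adjusted p = 0.331). Both probes were dim, and the first was well above background on 29 arrays and the second on 23. The size of the difference depended on the background correction, at 0.72 with normexp and 1.81 with the processed signal of the scanner software, where it was not called (adjusted p = 0.0643). With single arrays left out it stayed at 1.02 to 1.26, and the call was lost without any 1 of 8 mice of the total line (adjusted p up to 0.0770).

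Usp2 (probe at chr9:43903651-43903710) had signals of 6.42 to 7.31 (median 6.93) in WT littermates and 8.59 to 9.57 (median 9.12) in total ChREBP-KO mice. These groups were more than 1 log2 unit apart at their closest. The difference was 2.26 (SE 0.53, 4.79-fold, limma adjusted p = 0.00163), and the second probe gave 2.16 (adjusted p = 0.00170).

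Wee1 had signals of 6.64 to 7.76 (median 7.29) in WT littermates and 7.34 to 8.30 (median 7.89) in total ChREBP-KO mice. The ranges overlapped, with 5 of 7 knockouts above every WT littermate. The difference was 0.58 (95% confidence interval -0.17 to 1.34, limma adjusted p = 0.257). It was called when the 15 mice of this line were fitted alone (adjusted p = 0.0177), where the wide spread of the ChREBPβ line did not enter the error.

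Bhlhe41 could not be placed on either side. Its 2 probes passed the spot filter on 17 and 8 of the 31 arrays, with unnormalized signals of 14 to 59. Without the filter the differences were 0.17 (limma adjusted p = 0.703) and 0.09 (adjusted p = 0.784).

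**Figure D1:**
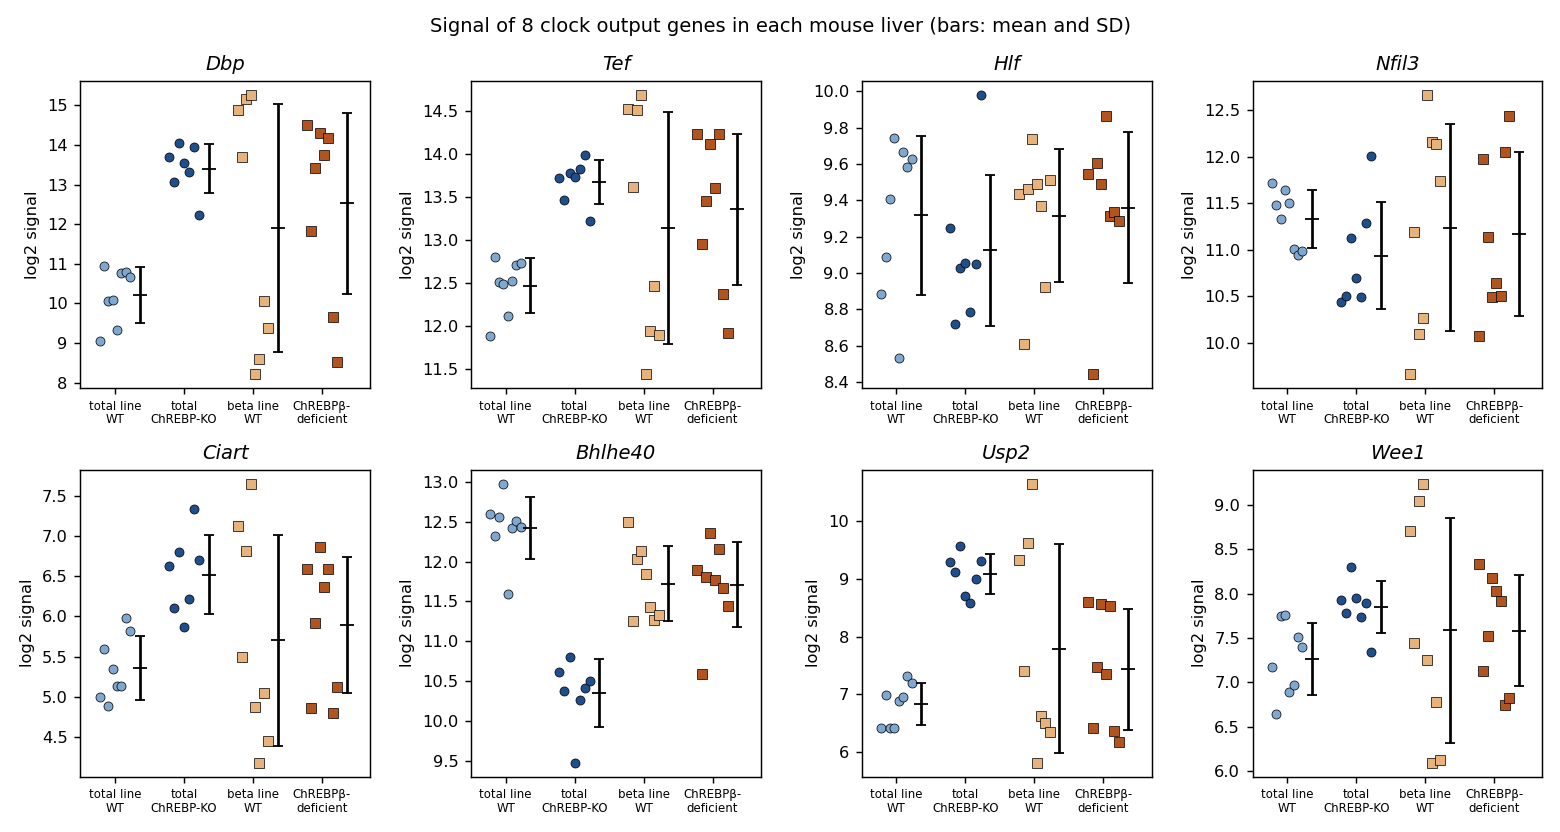
Log2 signal (y axis) of the brightest probe of 8 clock output genes in each of 31 livers (points), by genotype group (x axis), with bars for the mean and SD. Total ChREBP-KO mice sit above their WT littermates for Dbp, Tef and Usp2 and below them for Bhlhe40, and both groups of the ChREBPβ line span a wide range for Dbp, from 8.22 to 15.26.

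The 31 arrays were scanned on 2 days, with all 4 groups on each, and the differences were also taken within each day. On the first day alone the Dbp difference was 3.55 (limma adjusted p = 0.0513) and on the second 2.77 (adjusted p = 0.249). Tef gave 1.26 and 1.16, Ciart 1.14 and 1.23 and Usp2 2.61 and 1.88, all positive, and of these brightest probes only that of Usp2 on the first day was called. Bhlhe40 was called on both days. Of 6 exocrine pancreas genes measured, 4 were called lower in the total ChREBP-KO mice, where 17.1% of all genes were. For Amy2a5 this was by its dimmer probe only (brightest probe, limma adjusted p = 0.159). The median of Cela3b was 5.42 in total ChREBP-KO mice and 5.53 in WT littermates, so its lower mean went with the 3 bright WT livers. The 3 WT livers with pancreatic RNA had Dbp signals of 10.95, 10.80 and 10.66, within the upper part of the WT range, and without them the differences were 3.55 for Dbp, 1.37 for Tef, 1.42 for Ciart, 2.46 for Usp2 and -2.08 for Bhlhe40, all still called.

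The second comparison asked the same of the loss of ChREBPβ alone. None of the 8 genes was called by limma in ChREBPβ-deficient mice, and none had an unadjusted p under 0.05 in limma or in the exact Mann-Whitney test, where 0.00417% of all genes were called by limma, 1659 of 23968 had an unadjusted p under 0.05 in limma and 8.57% had one in the Mann-Whitney test. No probe of the 16 separated the genotypes, beside 0.0222% of all probes. Dbp ranged from 8.22 to 15.26 (median 11.88) in WT littermates and from 8.53 to 14.51 (median 13.58) in ChREBPβ-deficient mice, and mice of both genotypes lay at both ends. The difference was 0.61, with a 95% confidence interval of -1.33 to 2.56. That is wide enough to hold a change of over 1 log2 unit either way. Intervals here use 1 estimate of spread shared by the 4 groups. Dbp had SDs of 3.12 and 2.29 in WT and ChREBPβ-deficient mice, against 0.72 and 0.62 in WT and knockout mice of the total line. Usp2 had 1.81 and 1.05, against 0.36 and 0.35. For both genes the ChREBPβ line alone would therefore give a wider interval. Bhlhe40 was measured more tightly, at 11.25 to 12.50 (median 11.64) in WT littermates and 10.58 to 12.36 (median 11.79) in ChREBPβ-deficient mice, and its difference was -0.01 (95% confidence interval -0.46 to 0.43). For Usp2 the ranges were 5.82 to 10.65 (median 7.02) in WT littermates and 6.17 to 8.60 (median 7.41) in ChREBPβ-deficient mice, with a difference of -0.35 (95% confidence interval -1.41 to 0.70). The other differences were 0.23 for Tef, 0.04 for Hlf, -0.07 for Nfil3, 0.19 for Ciart and -0.002 for Wee1.

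**Figure D2:**
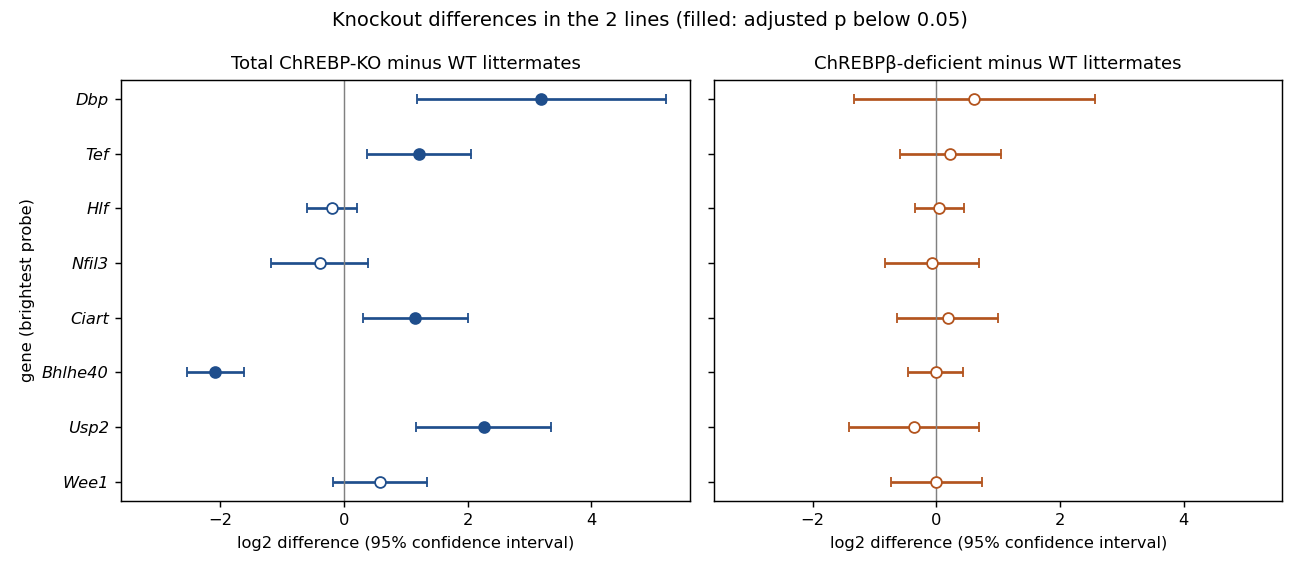
Log2 difference between knockouts and WT littermates (x axis, with 95% confidence interval) for the brightest probe of 8 genes (y axis), in the total ChREBP-KO line at left and the ChREBPβ line at right. Filled points were called, which are Dbp, Tef, Ciart, Bhlhe40 and Usp2 at left, and none at right.

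The difference between the 2 knockout effects was tested directly. It was called for Usp2, at 2.61 (SE 0.74, limma adjusted p = 0.0146), and for Bhlhe40, at -2.07 (SE 0.31, limma adjusted p = 2.12e-05), which is 2 of 8 genes where 18.3% of all genes were called, 8.82% upward and 9.6% downward. For Dbp it was 2.58 (95% confidence interval -0.22 to 5.38, adjusted p = 0.224) and for Tef 0.98 (adjusted p = 0.275), so that the change seen in total ChREBP-KO mice was not shown to differ from that in ChREBPβ-deficient mice for these genes. On each scan day alone the Usp2 difference was not called, at 3.49 (adjusted p = 0.106) and 1.68 (adjusted p = 0.333).

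WT littermates were compared between the lines, which bears on how far each line's controls were alike. Bhlhe40 was the 1 gene of 8 called, where 21.2% of all genes were (9.93% higher), and it was higher in WT mice of the total line by 0.71 (SE 0.22, limma adjusted p = 0.0241). The ranges overlapped, at 11.60 to 12.98 and 11.25 to 12.50. The difference was 0.56 when slides entered as fixed blocks (limma adjusted p = 0.253), 0.80 and 0.61 on each scan day alone and 0.71 without the 3 livers with pancreatic RNA (adjusted p = 0.0727). The call was lost in each of these fits, and also without replicate 2 or 7 of the ChREBPβ line's WT mice or replicate 4 of the total line's. Dbp was 1.70 lower in the total line's WT mice (95% confidence interval of the difference -3.65 to 0.25, adjusted p = 0.231). Between these WT groups 3 of 6 pancreatic and 3 of 5 red blood cell genes measured were also called higher in the total line. Cidea, 1 of 5 adipocyte genes, and Ptprc, 1 of 6 leukocyte genes, were called lower, where 11.4% of all genes were lower. Whether the make-up of the livers had a part in the Bhlhe40 difference was not tested.

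Within the ChREBPβ line the clock outputs varied among mice of the same genotype far more than between genotypes. The SD of the Dbp signal was 3.12 in the 8 WT littermates, the largest of all 36059 probes, and 2.29 in the 8 ChREBPβ-deficient mice, the eighth largest, where the median probe had 0.16 and 0.14. In the total line it was 0.72 in WT littermates and 0.62 in total ChREBP-KO mice. The highest Dbp signal of the 16 mice was 131-fold above the lowest. Tef spanned 9.49-fold, Nfil3 8.03-fold, Usp2 28.6-fold and Wee1 8.83-fold, and Ciart ran from 4.19 to 7.65, while Bhlhe40 spanned 3.76-fold and Hlf 2.67-fold.

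By single mouse, Dbp was above 13 in 4 WT littermates (replicates 1 to 4, at 14.89, 13.70, 15.16 and 15.26) and in 5 ChREBPβ-deficient mice (replicates 1, 3, 4, 5 and 6, at 14.51, 13.41, 14.31, 13.75 and 14.19). It was below 11 in the other 4 WT littermates (replicates 5 to 8, at 8.22, 8.61, 10.05 and 9.38) and in 2 ChREBPβ-deficient mice (replicates 7 and 8, at 9.66 and 8.53). ChREBPβ-deficient replicate 2 was between them, at 11.83. In the total line the split followed genotype, with all 8 WT littermates below 11 and 6 of 7 total ChREBP-KO mice above 13.

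In the ChREBPβ line 5 of the 7 other genes followed Dbp from mouse to mouse. Over the deviations of the 16 mice of the ChREBPβ line from their group means, Tef rose with Dbp with a Pearson r of 0.99 and a Spearman rho of 0.97 (permutation p = 1e-05 for each, the smallest that 100000 permutations within groups can give, adjusted p = 3.5e-05 and 7e-05 over the 14 relations computed). Tef moved by 0.41 for each log2 unit of Dbp. Nfil3 ran the other way, with r = -0.94 and rho = -0.94 (permutation p = 1e-05 for each, adjusted 3.5e-05 and 7e-05) and a slope of -0.35. The 3 mice with the most Nfil3, at 12.67, 12.44 and 12.16, were the 3 with the least Dbp.

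Usp2 (r = 0.91, rho = 0.91), Ciart (r = 0.90, rho = 0.88) and Wee1 (r = 0.89, rho = 0.88) also rose with Dbp in these 16 mice, with permutation p for r of 1e-05, 3e-05 and 1e-05 (adjusted 3.5e-05, 7e-05 and 3.5e-05). For rho the permutation p was 2e-05, 8e-05 and 9e-05 (adjusted 9.33e-05, 0.000252 and 0.000252). Bhlhe40 was less closely tied to Dbp (r = 0.55, rho = 0.55, permutation p = 0.0317 and 0.0393, adjusted 0.0634 and 0.0688). Hlf was not (r = 0.18, rho = 0.27, permutation p = 0.506 and 0.311, adjusted 0.590 and 0.402). Leaving out the 2 mice farthest from the median of Dbp gave r of 0.98 for Tef, -0.92 for Nfil3, 0.90 for Usp2, 0.94 for Ciart, 0.95 for Wee1, 0.63 for Bhlhe40 and 0.26 for Hlf. On the 2 scan days the r values were 0.99 and 0.99 for Tef, -0.97 and -0.98 for Nfil3, 0.90 and 0.94 for Usp2, 0.82 and 0.95 for Ciart and 0.78 and 0.93 for Wee1, over 7 and 9 mice. For Bhlhe40 they were 0.34 and 0.85.

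In the 15 mice of the total line, where Dbp varied less within a group, Tef kept its relation with Dbp (r = 0.93, rho = 0.86, permutation p = 2e-05 and 0.00025, adjusted 5.6e-05 and 0.000583) and its slope was 0.40. Without the 2 farthest mice its r was 0.86, and it was 0.94 on each scan day. None of the other 6 relations passed adjustment in this line. For Ciart, Usp2, Wee1, Bhlhe40, Hlf and Nfil3, in this order, r was 0.47, 0.39, 0.28, 0.15, 0.14 and -0.51 (permutation p = 0.0864, 0.172, 0.347, 0.622, 0.618 and 0.0483, adjusted 0.134, 0.241, 0.442, 0.622, 0.622 and 0.0845). Their rho was 0.59, 0.48, 0.16, -0.11, 0.14 and -0.28 (permutation p = 0.0286, 0.0879, 0.580, 0.695, 0.627 and 0.316, adjusted 0.0572, 0.137, 0.675, 0.695, 0.675 and 0.402). Without the 2 farthest mice r was 0.62, 0.50, 0.03, 0.40, 0.57 and -0.03, so that the r of Nfil3 rested on those mice. Whether the relations differed between the lines was not tested.

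**Figure D3:**
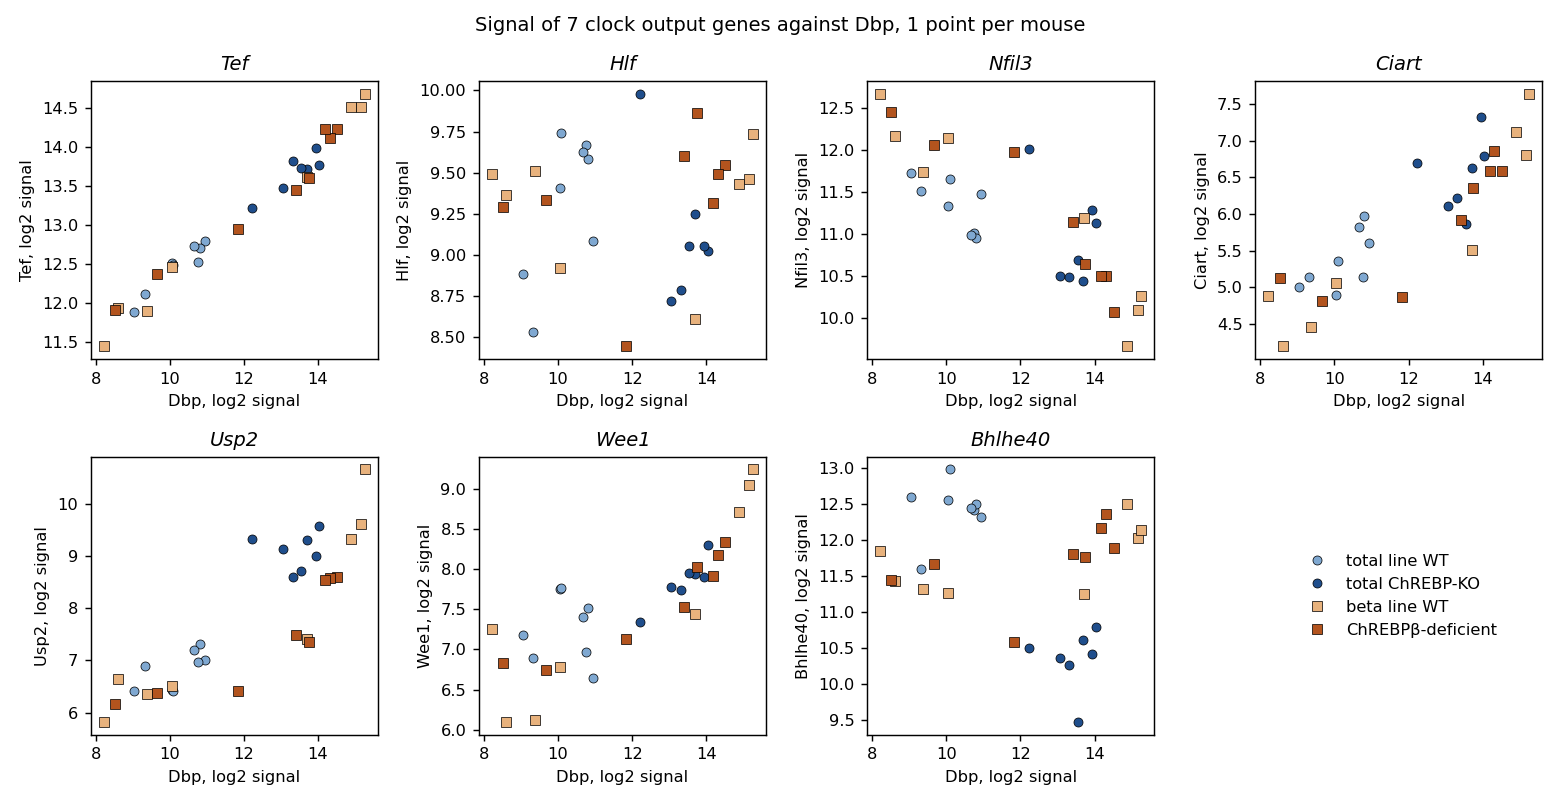
Log2 signal of 7 genes (y axes) against that of Dbp (x axes), 1 point per mouse with color and shape by group. Tef, Ciart, Usp2 and Wee1 rise and Nfil3 falls along Dbp, and for Bhlhe40 the 7 total ChREBP-KO mice lie below the 3 mice of the ChREBPβ line whose Dbp is within their range.

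Since Dbp differed so widely, the knockout differences were also taken at equal Dbp signal, with Dbp as a covariate over the 31 mice. This fit was chosen after the values of single mice had been seen. It used 1 slope on Dbp for all groups, and Dbp varied most in the ChREBPβ line. Dbp did not overlap between total ChREBP-KO mice and WT littermates, so differences at equal Dbp extend that slope between their ranges. Within the total line the slope was 0.40 for Tef, -0.35 for Nfil3, 0.31 for Ciart, 0.21 for Usp2, 0.15 for Wee1 and 0.09 for Bhlhe40. The shared slopes were 0.41, -0.35, 0.36, 0.47, 0.31 and 0.10. In the total line the r of Nfil3 with Dbp was -0.51, and -0.03 without the 2 mice farthest from the median of Dbp. At equal Dbp 27.5% of all genes were called between total ChREBP-KO mice and WT littermates. Bhlhe40 remained lower, with a difference of -2.40 (SE 0.24, limma adjusted p = 1.24e-08). The differences of Tef and Ciart were close to 0, at -0.10 (adjusted p = 0.491) and 0.006 (adjusted p = 0.992), and that of Usp2 was 0.74 (SE 0.30, adjusted p = 0.0719). Nfil3, not called otherwise, was higher at equal Dbp by 0.71 (SE 0.21, adjusted p = 0.0123). Wee1 was not called by its brightest probe, at -0.42 (adjusted p = 0.224), and its dim second probe, well above background on 22 of 31 arrays and on 4 of the 8 WT arrays of the total line, gave -0.33 (adjusted p = 0.0373). In the total line alone, where the Dbp ranges of knockouts and WT littermates did not meet, none of these genes was called by its brightest probe, with -2.37 for Bhlhe40 (adjusted p = 0.0644), 0.71 for Nfil3 (adjusted p = 0.670) and 1.60 for Usp2 (adjusted p = 0.129).

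Single mice of the 2 lines with like Dbp signals can be set side by side, without a test and across lines rather than among littermates. Of the ChREBPβ line, 3 mice, of both genotypes, had Dbp signals within the range of the total ChREBP-KO mice, from 13.41 to 13.75. Their Tef signals, 13.45 to 13.62, lay within those of the 7 total ChREBP-KO mice (13.22 to 13.99). Their Usp2 signals, 7.35 to 7.48, were below all 7 (8.59 to 9.57), and their Bhlhe40 signals, 11.25 to 11.81, were above all 7 (9.47 to 10.80). Their Nfil3 signals, 10.64 to 11.19, lay within the range of the 7 (10.44 to 12.01). Low-Dbp mice were also at hand, 3 of the ChREBPβ line with 9.38 to 10.05. Their Nfil3 signals of 11.74 to 12.14 were above all 8 WT littermates of the total line (10.95 to 11.72). Signals of Bhlhe40 (11.26 to 11.66) and Usp2 (6.35 to 6.51) reached below these WT mice (11.60 to 12.98 and 6.42 to 7.31). So did Ciart (4.45 to 5.05 against 4.89 to 5.98) and Wee1 (6.12 to 6.78 against 6.64 to 7.76). Tef (11.89 to 12.46) and Hlf (8.92 to 9.51) lay within the WT ranges.

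Genes beyond the outputs were taken from lists of the clock loop and of rhythmic liver genes. In total ChREBP-KO mice 8 of 11 genes of the core clock loop were called, where 33.9% of all genes were. A gene counted by any 1 of its probes. By probes, 5 of 25 were higher and 5 lower, beside 14.5% and 14.6% of all probes. Nr1d1 (REV-ERBα), a repressor in the loop, was higher by 1.21 (SE 0.25, limma adjusted p = 0.000319), and Arntl, which encodes BMAL1, was lower, with a difference of -1.38 (SE 0.47, adjusted p = 0.0251). Per1, Per3, Cry2 and Nr1d2 were also higher by at least 1 probe, and Cry1 and Npas2 lower. Clock, Per2 and Rora were not called. Between WT littermates of the total line and of the ChREBPβ line 4 of 11 genes of the loop were called, where 21.2% of all genes were. Nr1d1, Per3 and Cry2 were lower in the total line's WT mice, and Clock was higher.

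Of 10 liver genes counted as targets of PAR bZIP factors, 8 were higher in total ChREBP-KO mice and none lower, where 17.3% of all genes were higher and 17.1% lower. By probes, 10 of 17 were higher, beside 14.5% of all probes. Among them Cyp2a4 and Cyp2a5, steroid and coumarin hydroxylases, were higher by 1.86 and 1.68 (SE 0.21 and 0.20, limma adjusted p = 5.65e-08 and 1.06e-07), but these paralogs are nearly identical and their probes may not tell them apart. Nr1i3, the drug-sensing receptor CAR, was higher by 1.17 and Por, which passes electrons to P450 enzymes, by 0.81 (adjusted p = 1.05e-06 and 0.00244). Alas1, Cyp2b10, Cyp7a1 and Ppara were higher by at least 1 probe, and Acot3 and Acot4 were not called. Between the WT groups 3 of 10 were called, where 21.2% of all genes were, with Acot3 and Ppara lower and Cyp7a1 higher in the total line. The median difference of the 10 genes in total ChREBP-KO mice was 0.91, against 0.01 over all genes. The 8 higher genes followed Dbp from mouse to mouse to unlike degrees, by deviations from group means. Over the 31 arrays r was 0.73 for Por, 0.62 for Cyp2a4, 0.60 for Cyp2a5, -0.05 for Cyp2b10 and -0.30 for Nr1i3. Within the total line it was 0.15, 0.30, 0.28, -0.15 and -0.38. By probe, r over the 31 arrays was 0.22 to 0.75 for Alas1, Cyp7a1 and Ppara. Whether PAR bZIP factors acted on these genes was not tested.

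Of 10 other rhythmic liver transcripts, Coq10b, Cys1 and Upp2 were higher and Leo1 and Tspan4 lower, beside the same 17.3% and 17.1%, with 2.08 for Upp2 (SE 0.50, limma adjusted p = 0.00198), a phosphorylase of uridine. By probes, 8 of 19 were higher and 2 lower, beside 14.5% and 14.6% of all probes. In ChREBPβ-deficient mice none of the 31 genes of the 3 lists was called by limma, and 3 of them had a probe with an unadjusted p under 0.05, as had 1659 of all 23968 genes. The difference between the knockout effects was called for 2 of 11 genes of the clock loop (Per1, Rora), 6 of 10 targets of PAR bZIP factors and 3 of 10 other rhythmic transcripts, where 18.3% of all genes were called. The count of 2 of 11 for the clock loop is close to that share.

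**Figure D4:**
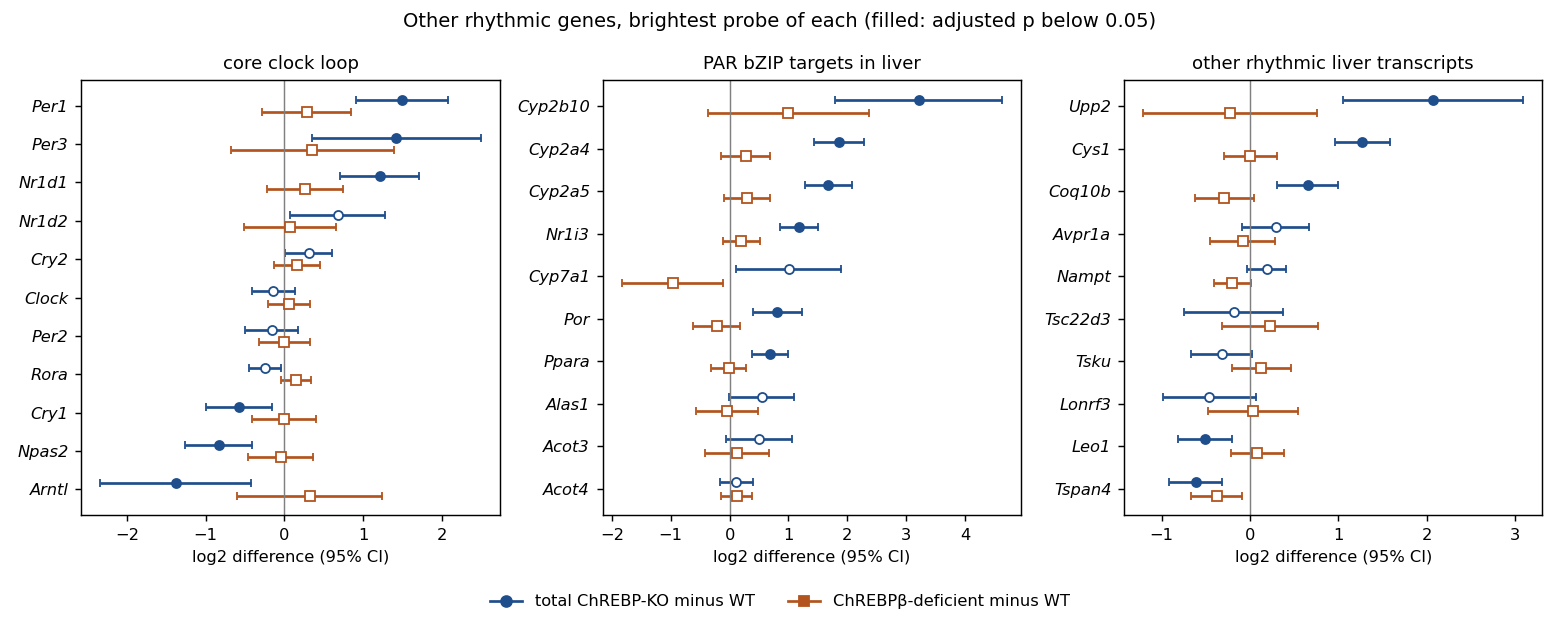
Log2 difference between knockouts and WT littermates (x axes, with 95% confidence intervals) for the brightest probe of the genes of 3 lists (y axes), circles for the total ChREBP-KO line and squares for the ChREBPβ line, filled where that probe was called. In total ChREBP-KO mice Per1, Per3 and Nr1d1 are higher and Arntl, Npas2 and Cry1 lower, 6 of the 10 PAR bZIP targets are higher, and no square is filled.

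Outside these lists, the genes whose deviations from group means over the 31 arrays followed Dbp most closely were found by Pearson r, as a description. The highest were Dnajb11 (r = 0.95), BF301431 (0.93), Pcsk4 (0.92), Tbc1d10a (0.92), Narf (0.91), A930017M01Rik (0.91), Ppargc1b (0.91), which encodes the coactivator PGC-1β, and Gpr146 (0.90). Among the lowest were Ppard (-0.95), a nuclear receptor, Loxl4 (-0.92), Desi2 (-0.92), Mal2 (-0.91), Clpx (-0.91), Gm34368 (-0.90) and AK080391 (-0.90). Within the total line r was nearer 0 for each gene named, from 0.18 for Dnajb11 to 0.73 for Ppargc1b among the highest and from -0.24 for AK080391 to -0.68 for Desi2 among the lowest. Each of these genes is given by its probe with the r farthest from 0. For comparison, the closest probe of Tef reached 0.99 over the same arrays, that of Per3 0.97 and that of Arntl -0.95. Their brightest probes gave 0.98, 0.96 and -0.90.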

How the data were processed

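Scanner files of 31 arrays were used, with groups and replicate numbers from the sample labels. The authors deposited the median pixel intensity of each spot, extracted with Agilent Feature Extraction 10.10.1.1 and not normalized between arrays, with flags for each spot. Quantile-normalized log2 values, deposited by the authors as 1 table, served as an alternative. Gene names and positions are those of the array design (mm9).

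As in the study's methods, a probe was kept if the software found it with significant signal over background on 26 arrays of all or 6 of any group, log2 of the median intensity was quantile normalized without background subtraction, and replicated probes were reduced to their median, which left 36059 probes. The main steps were checked on simulated data. Tests used limma 3.58.1 in R 4.3.3, with 1 model of the 4 groups, 4 contrasts and Benjamini-Hochberg adjustment over all probes, with a threshold of 0.05. The precision is limited by 7 or 8 arrays per group. Relations across mice used two-sided permutation within groups. Each array held 1 mouse. P-values measure the spread between mice.

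The genes and lists were chosen with earlier results of these data known, so their counts are descriptions. The p-values of the relations with Dbp carry the same limit. The genes like Dbp were named by a rule, the 8 highest and 8 lowest gene names outside the lists by Pearson r, and some items are not reported here. Lists of hepatocyte, exocrine pancreas, adipocyte, red blood cell, leukocyte and bile duct and stellate cell markers were read beside the results, and in total ChREBP-KO mice 2 of 6, 4 of 6, 0 of 5, 1 of 5, 1 of 6 and 1 of 6 of their measured genes were called, the 4 pancreatic ones lower and the others higher. Of all genes 33.9% were called, 17.3% higher and 17.1% lower. The alternatives were other scaling, background correction and filters, slide, scan day and replicate number as blocks, each scan day alone, each line alone, trended and robust eBayes, a fold threshold of 1.5, the exact Mann-Whitney test of the study's legends, and leaving out single arrays. The livers with pancreatic RNA were left out, and Dbp was used as a covariate, after the data had been seen. Figures were drawn with matplotlib 3.10.9.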

Additional observations from a re-analysis of the deposited data

Results flagged for a closer look

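The effect of losing both isoforms differed from that of losing ChREBPβ for 2 genes by a test of the difference itself. It was -2.07 for Bhlhe40 (limma adjusted p = 2.12e-05) and 2.61 for Usp2 (adjusted p = 0.0146), in log2 units.

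Single mice stood apart from the rest of their group in 4 of the 32 groups of values examined (8 genes in 4 groups), where chance alone gives about 1 in 20. For Hlf these were total ChREBP-KO replicate 8, at 9.98 with the next mouse at 9.25, and ChREBPβ-deficient replicate 2, at 8.44 with the next at 9.29. For Bhlhe40 they were total ChREBP-KO replicate 5, at 9.47 with the next at 10.26, and WT replicate 5 of the total line, at 11.60 with the next at 12.32.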

How the results depend on the processing

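The 5 genes called in total ChREBP-KO mice became 3 on the first scan day alone and 1 on the second, and 4 or 5 with single arrays left out. The 2 genes whose knockout effects differed became 1 on each scan day alone and stayed at 2 with any single array left out. In ChREBPβ-deficient mice the count was 0 under every alternative run. The 1 gene called between the WT groups became 0 with slide as a fixed block, on scan day 1 alone, on scan day 2 alone, without the livers with pancreatic RNA and with the Mann-Whitney test after adjustment, and 0 to 2 with single arrays left out. The relations with Dbp past adjustment went from 6 to 8 without the 2 farthest mice and were 6 with the authors' deposited values. Fewer arrays entered the fits on each scan day, and other causes were not tested.

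Directions turned for values near 0 that were not called. In total ChREBP-KO mice Nfil3 was 0.15 on scan day 2 alone. In ChREBPβ-deficient mice Wee1 was 0.0457 with the processed signal, 0.00366 with the median signal set to each array's upper quartile, 0.0567 with scan day as a block and 0.64 on scan day 2 alone, where Bhlhe40 was 0.16 and Usp2 0.20. Slide as a fixed block gave -0.10 for Hlf and -0.13 for Ciart, and scan day 1 alone gave -0.0562 for Tef, -0.15 for Hlf, 0.15 for Nfil3 and -0.32 for Ciart. For the difference of the effects, scan day 2 alone gave 0.43 for Nfil3 and -0.18 for Wee1. Between the WT groups Hlf was -0.0100 with the processed signal, -0.00535 with normexp, -0.000500 with no filter, -0.000171 with the deposited values, -0.0199 and -0.13 with slide as a random and fixed block, -0.0434 on scan day 1 alone and -0.0688 without the livers with pancreatic RNA. Nfil3 was -0.0508 with slide as a fixed block, and scan day 2 alone gave -0.31 for Nfil3, 0.31 for Ciart and 0.27 for Wee1. At equal Dbp, Wee1 was 0.11 in the total line alone.

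With single arrays left out, values in ChREBPβ-deficient mice ranged from -0.30 to 0.13 for Nfil3, -0.10 to 0.15 for Bhlhe40, -0.21 to 0.23 for Wee1, -0.0569 to 0.17 for Hlf, -0.64 to 0.0550 for Usp2, -0.0167 to 0.45 for Tef and -0.0301 to 0.46 for Ciart. Between the WT groups they ranged from -0.13 to 0.29 for Nfil3 and -0.10 to 0.11 for Hlf, and at equal Dbp from -0.12 to 0.12 for Ciart. The replicate numbers were not taken as pairs, since not every same-numbered pair correlated above 0.1 (2 of 7 in the total line and 6 of 8 in the ChREBPβ line, where 1 of 7 and 4 of 8 mice correlated best with their own number). In the ChREBPβ line the same-numbered mice 1, 2 and 4 correlated at 0.45, 0.53 and 0.44, so a pairing in that line cannot be set aside. With the replicate number as a block 5 genes were called in total ChREBP-KO mice, 0 in ChREBPβ-deficient mice and 3 for the difference of the effects. The relations with Dbp were not repeated with this block. At equal Dbp, the call of Usp2 was gained without WT replicate 4 of the ChREBPβ line (adjusted p = 0.0125).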
